A study of Homo sapiens with 34 samples.

Results

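Of 6543 genomic regions at which Flag-tagged proteins were called in SW872 liposarcoma cells, 1897 (29.0%) were called with YAP5SA, an active form of YAP, and with none of the other 5 constructs. The regions were chosen by position. Peaks of the 6 constructs on chromosomes 1 to 22 and X were merged wherever they shared at least 1 bp, and a merged region was kept when it held a YAP5SA peak and no other construct's peak. Each of the 1897 regions held a single YAP5SA peak. They made up 50.7% of the 3745 regions with a YAP5SA peak (95% Wilson interval 49.1 to 52.3), and the other 1848 were shared with at least 1 other construct. The rule used presence in the 6 lists, so these counts are a description. "YAP5SA-only" means that no other list held a called peak there, and says nothing about binding below the calling threshold.

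YAP is the transcriptional co-activator at the end of the Hippo pathway, a kinase cascade that restrains growth. LATS kinases phosphorylate YAP on serines, which keeps it in the cytoplasm and marks it for degradation. YAP has no DNA-binding domain of its own, and it reaches chromatin mainly through the TEAD transcription factors, often at enhancers far from gene starts. TAZ is its close relative and uses the same TEAD partners.

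SW872 is a human liposarcoma line, and all constructs carried a Flag tag and were delivered by stable retroviral transduction, so the cells carried them in addition to their own YAP and TAZ. YAP5SA and TAZ4SA are YAP and TAZ with 5 and 4 serines replaced by alanine, so that LATS kinases cannot phosphorylate those sites. YAP-TFE3 and TAZ-CAMTA1 are the fusion proteins that drive a sarcoma of blood vessel cells, epithelioid hemangioendothelioma, and full-length TFE3 and CAMTA1 were the other parents. The 34 libraries were 18 Flag immunoprecipitations (3 for each construct), 2 IgG immunoprecipitations from empty vector (EV) cells and 14 inputs. Cells were collected near confluence, except that the labels have CAMTA1 cells collected below confluence.

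The authors pooled replicates before calling peaks, so each construct had 1 peak list and no value has a replicate error. Intervals cover counting error only and treat neighbouring regions as independent, and no p-value was computed. Mean fragment coverage, solved from the deposited peak values, differed between 2 sets of lists. It was 10.7 fragments per base for YAP5SA, 10.5 for the fusion YAP-TFE3 and 8.61 for full-length TFE3. In the other set it was 2.33 for TAZ4SA, 2.52 for the fusion TAZ-CAMTA1 and 2.21 for full-length CAMTA1. Depth therefore moved with the set of proteins, YAP5SA, TFE3 and YAP-TFE3 against TAZ4SA, CAMTA1 and TAZ-CAMTA1. The effect of depth on presence in a list cannot be told apart from that of the proteins. None of the 1897 YAP5SA-only regions overlapped any of the 4 peaks called with IgG on chromosomes in EV cells. So few IgG peaks could meet only a few regions at most, so this absence does not measure unspecific signal.

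The share of regions held alone differed between constructs. YAP-TFE3 was the list most like YAP5SA in size and depth, and 1653 of its 3316 regions (49.8%, 48.1 to 51.6) were held by no other list, or 25.3% of all merged regions. The intervals of these shares for YAP5SA and YAP-TFE3 overlapped. The less deeply sequenced lists of the TAZ proteins held smaller shares alone, at 22.3% (20.01 to 24.8) of 1156 regions for TAZ4SA and 30.7% (28.2 to 33.4) of 1178 for TAZ-CAMTA1. Of the 298 TFE3 regions 57 (19.1%) were held alone, and of the 156 CAMTA1 regions 139 (89.1%) were.

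Among YAP5SA regions that were shared, the most frequent partner was YAP-TFE3. YAP-TFE3 alone joined YAP5SA at 616 regions, or 16.4% of all YAP5SA regions. TAZ4SA alone joined it at 293 regions (7.82%) and TAZ-CAMTA1 alone at 122 (3.26%). All 4 proteins with a YAP or TAZ portion met, without the full-length parents TFE3 and CAMTA1, at 264 regions (7.05%). Full-length TFE3 was the sole partner at 5 regions and CAMTA1 at 3.

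YAP5SA-only peaks were weaker in the YAP5SA immunoprecipitation than shared YAP5SA peaks. Fold enrichment is the ratio of fragment pileup at the peak summit to the local background. In the YAP5SA list the values fit both being multiplied by 0.307 and then raised by 1, so a fold is smaller than the plain ratio of the fragment numbers printed here. The multiplier was 0.356 for YAP-TFE3, 0.355 for TFE3 and 1 for the other 3 lists, so an equal fold is not an equal enrichment across lists. Its median was 4.53 over the 1897 YAP5SA-only peaks (95% interval 4.46 to 4.60), with quartiles of 3.82 and 5.39 and a range of 2.01 to 11.3. Over the 1857 shared peaks the median was 5.39 (5.32 to 5.47), with quartiles of 4.37 and 6.90 and a maximum of 28.1. The ratio of the medians was 0.841, and the middle parts of both distributions overlapped widely. YAP5SA's own list chose these regions, so the comparison is a description.

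In fragments, the typical YAP5SA-only summit was covered 63 deep, with quartiles of 53 and 74 and a range of 41 to 211. That is 5.89 times the genome-wide mean of 10.7 fragments per base. Shared summits had a median of 75 fragments, with quartiles of 61 and 98, or 7.01 times the mean. The weakest peak that the caller accepted against the genome-wide mean had 40 fragments, against a lower quartile of 53 for YAP5SA-only peaks. The weaker YAP5SA-only peaks thus lay close above the limit of detection.

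**Figure D1:**
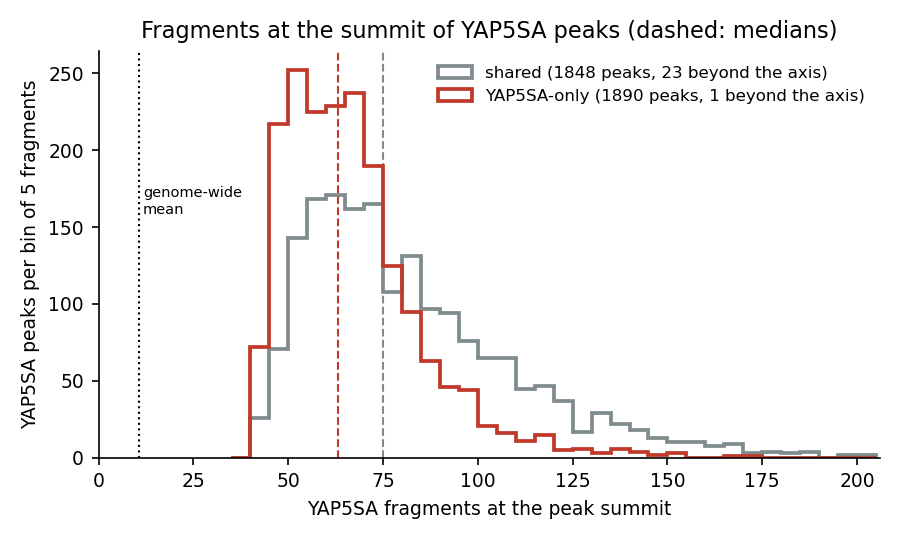
Number of YAP5SA peaks (vertical axis) by YAP5SA fragments at the summit (horizontal axis, bins of 5 fragments) for YAP5SA-only peaks (red) and shared peaks (grey); dashed lines are the medians of 63 and 75 and the dotted line is the genome-wide mean of 10.7. The shared set starts at 40 fragments and the YAP5SA-only set at 41, and the shared set has the longer upper tail.

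High values were less frequent among YAP5SA-only peaks. Of the YAP5SA-only peaks 42 (2.21%) had a fold enrichment above 8, against 268 (14.4%) of the shared peaks. By the caller's q-value, the false discovery rate given here as −log10, 255 YAP5SA-only peaks (13.4%) and 724 shared peaks (39.0%) were above 10. Above 20 there were 27 (1.42%) and 195 (10.5%). At the other end, 189 YAP5SA-only peaks (9.96%) and 95 shared peaks (5.12%) had a −log10 q below 2. The medians of −log10 q were 4.88 and 7.77.

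YAP5SA-only peaks were also narrower. Their median width was 280 bp (276 to 288), against 382 bp (373 to 397) for shared peaks, a ratio of 0.733. Widths ran from 196 to 1998 bp, and 189 YAP5SA-only peaks (9.96%) were wider than 500 bp, against 572 (30.8%) of the shared peaks. The caller extends a peak for as long as the enrichment stays significant, so a peak's width and its strength are not separate measures. The summit lay at a median of 48.6% of the peak's width in YAP5SA-only peaks and at 50% in shared ones. Single summits were spread widely, with quartiles of 35.02% and 62.5% in YAP5SA-only peaks and 35.6% and 64.7% in shared ones.

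YAP5SA enrichment was higher the more other lists shared the region. The median fold was 4.53 with no other list, 4.96 (4.82 to 5.11) with 1 other list at 1039 peaks, 5.87 (5.54 to 6.04) with 2 at 535 peaks, and 7.07 (6.54 to 7.47) with 3 at 277 peaks. The partner moved with the level too. Peaks shared with YAP-TFE3 alone were nearest to the YAP5SA-only peaks, with a median fold of 4.75 (4.68 to 4.89). The median was 5.03 (4.75 to 5.39) with TAZ-CAMTA1 alone and 5.39 (5.18 to 5.54) with TAZ4SA alone. It reached 7.11 (6.69 to 7.47) where TAZ4SA, TAZ-CAMTA1, YAP5SA and YAP-TFE3 met. The TAZ lists were the shallower ones, and whether depth or the protein set these levels was not tested.

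**Figure D2:**
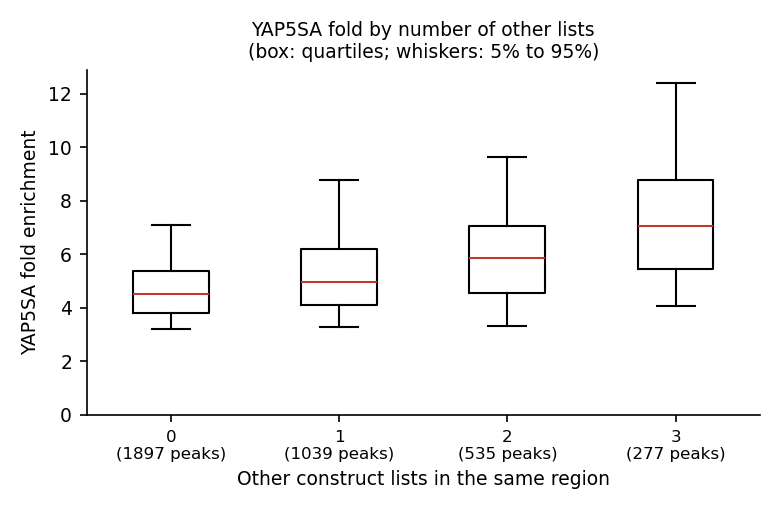
YAP5SA fold enrichment (vertical axis) of YAP5SA peaks by the number of other construct lists in the same region (horizontal axis); red lines are medians, boxes quartiles and whiskers the 5th and 95th percentiles. The median is lowest, at 4.53, for YAP5SA-only peaks and highest, at 7.07, with 3 other lists, while the boxes overlap; the 6 peaks with 4 other lists are not drawn.

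The share of YAP5SA-only peaks was lowest among the strongest peaks. When the 3754 YAP5SA peaks were ranked by q and cut into 10 parts of nearly equal size, 14.4% of the strongest part were YAP5SA-only, 29.3% of the next and 42.0% of the third. The share was 57.6% in the fifth part and 67.7% in the weakest. Between the fifth and the seventh part it lay between 56.0% and 59.6%, with overlapping intervals. The strongest YAP5SA-only peak stood at rank 43, and 11 of the strongest 100 YAP5SA peaks were YAP5SA-only.

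**Figure D3:**
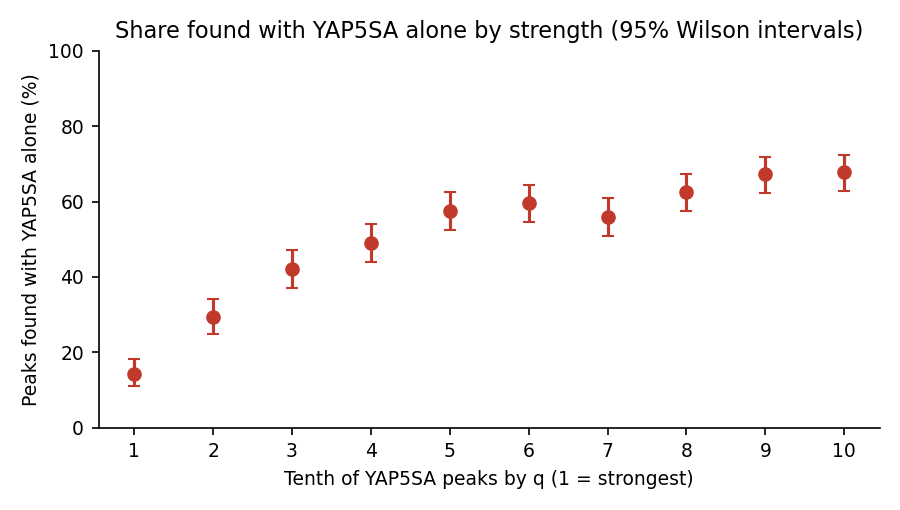
Percentage of YAP5SA peaks that were YAP5SA-only (vertical axis) in 10 parts of the YAP5SA list by rank of q (horizontal axis, 1 is the strongest); bars are 95% Wilson intervals. The share lies at 14.4% in the strongest part and at 67.7% in the weakest, with little difference between the fifth and the seventh.

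The 10 strongest YAP5SA-only regions, by −log10 q, lay on chromosomes 2, 5, 6, 9, 11 and 13, and 5 of them were on chromosome 5. Their folds of 9.66 to 11.3 were above the 95th percentile of the YAP5SA-only peaks, 7.11, and all but the lowest were above that of the shared peaks, 9.76. Positions are on GRCh37. Genes, transcript features and DNA sequence at these positions were not analysed here, because the supplied genome and annotation were of GRCh38.

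The strongest was chr5:10885132-10885778, with 170 fragments at its summit, a fold of 10.6 and a −log10 q of 34.2. The nearest peak of another construct, from YAP-TFE3, was 90.2 kb away. The next was chr13:100339954-100340524, with 169 fragments, a fold of 10.5 and a −log10 q of 32.9, at 73.0 kb from a YAP-TFE3 peak. Both stood over a local background slightly above the genome-wide mean, at 13.04 and 13.17 fragments.

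The highest fold of any YAP5SA-only peak, 11.3, was at chr6:85362026-85362412, where 154 fragments stood over the genome-wide background. It was isolated, with no peak of another construct and no other YAP5SA peak closer than 708 kb. The peak at chr9:4137214-4137582 (151 fragments, fold 11.1) was the farthest of the 10 from another construct, at 1132 kb from a YAP-TFE3 peak, with another YAP5SA peak at 125 kb. The peak at chr5:131150566-131151166 had the same 151 fragments and the same fold, and a YAP-TFE3 peak lay at 17.4 kb. These peaks of equal strength thus differed widely in their distance to another construct's peak.

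The remaining 5 had folds of 9.66 to 10.8. They were chr11:36376256-36376612 with 148 fragments, chr2:12164436-12164716 with 144, chr5:92527862-92528169 with 143, chr5:37771764-37772296 with 148 and chr5:56662248-56663275 with 139. The peak on chromosome 11 had another YAP5SA peak at 7.96 kb, the smallest such distance among the 10. The one at chr5:56662248-56663275 was the widest of them, at 1028 bp. YAP-TFE3 gave the nearest peak of another construct at each of the 10, at distances of 17.4 to 1132 kb.

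The calling threshold and the overlap rule both had members at their edge. The weakest YAP5SA-only peaks were chr5:17219302-17219499, chr5:95298395-95298591 and chr9:137491301-137491787, with −log10 q of 1.00, 1.01 and 1.01, folds of 3.13, 2.95 and 3.01, and 42, 44 and 45 fragments. YAP5SA peaks with a higher q were not in the list. On the overlap rule, the YAP5SA-only peak at chr3:45165469-45166079 (fold 3.601) abutted a YAP-TFE3 peak with a gap of 0 bases, and that at chrX:135213215-135213626 (fold 6.47) lay 8 bases from another. Just outside the rule, the peak at chr9:117314351-117314696 (fold 3.67) counted as shared through 2 bases of a TAZ4SA peak, and that at chr1:218833942-218834275 (fold 4.17) through 3 bases of a YAP-TFE3 peak. Such cases were few, with 7 YAP5SA-only peaks within 50 bases of another construct's peak and 12 shared peaks overlapped by 50 bases or less.

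Few YAP5SA-only regions lay close enough to another construct's peak to be near misses of the overlap rule. The median distance to the nearest peak of any other construct was 56.0 kb. It was 500 bp or less at 46 regions (2.42%) and 1 kb or less at 95 (5.01%). Within 10 kb there were 412 (21.7%, 19.9 to 23.6) and within 100 kb 1170 (61.7%). At the far end, 114 regions (6.01%) had no peak of another construct within 1 Mb, and 512 (26.99%) had no peak of any construct, YAP5SA included, within 100 kb.

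YAP-TFE3, which shares the amino-terminal part of YAP, was the nearest other list at 1109 regions (58.5%). TAZ4SA was nearest at 394 (20.8%), TAZ-CAMTA1 at 322 (17.0%), TFE3 at 50 and CAMTA1 at 22. The median distance was 93.9 kb to a YAP-TFE3 peak, 299 kb to TAZ4SA, 346 kb to TAZ-CAMTA1, 2847 kb to TFE3 and 5451 kb to CAMTA1. That order was also the order of the lists by size, except that TAZ-CAMTA1 with 1184 peaks and TAZ4SA with 1166 were nearly equal. YAP-TFE3 had 3336 peaks, TFE3 299 and CAMTA1 156, and the part of list size in these distances was not tested.

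**Figure D4:**
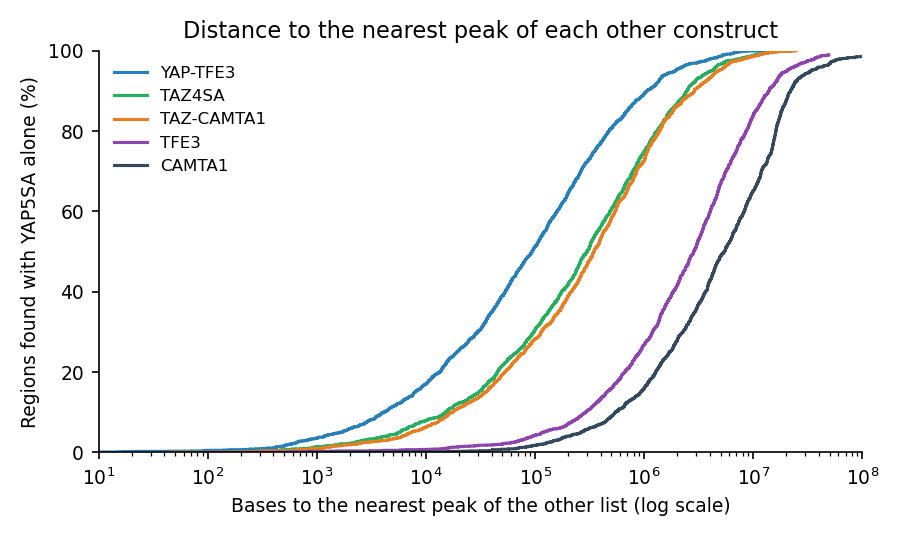
Cumulative percentage of YAP5SA-only regions (vertical axis) by bases to the nearest peak of each other construct (horizontal axis, log scale); each line is 1 construct's list. The YAP-TFE3 line, with a median of 93.9 kb, lies left of TAZ4SA and TAZ-CAMTA1, which run close together, and TFE3 and CAMTA1 lie farthest right.

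YAP5SA-only peaks near another construct's peak were weaker than the rest, though wider. The 412 within 10 kb had a median fold of 4.10 (4.03 to 4.25), and the 1485 farther away had 4.68 (4.60 to 4.75). The median widths were 318.5 and 272 bp. The 114 peaks beyond 1 Mb had a median fold of 4.75 (4.46 to 5.11), above the interval of the peaks within 10 kb and overlapping that of the 1485, which include them. Of the near peaks 126 (30.6%) were on chromosome 5, against 282 (18.99%) of the far ones. On chromosome 5 the local background was more often above the genome-wide mean. The part of that in the lower fold was not tested.

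The lists also differed in the weakest peak called against the genome-wide background. The lowest fold called against the genome-wide background was 2.99 in the YAP-TFE3 list (37 fragments), 3.10 in the YAP5SA list itself (40 fragments) and 3.57 in the TFE3 list (38 fragments). With 11 fragments each, it was 3.61 in the TAZ4SA list, 3.41 in the TAZ-CAMTA1 list and 3.73 in the CAMTA1 list. These folds carry the multipliers given above, which differ between lists, so they do not rank the lists by enrichment. The level that the other proteins reached at the YAP5SA-only positions was not analysed here, since the lists hold called peaks only.

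Chromosome 5 held 408 of the 1897 YAP5SA-only regions, 21.5% (19.7 to 23.4), against 15.9% of all merged regions. It held 280 of the 1848 shared YAP5SA regions (15.2%), and the difference of 6.36 percentage points had a 95% Newcombe interval of 3.88 to 8.82. It held 269 of the 1653 regions found with YAP-TFE3 alone (16.3%), a difference of 5.23 points (2.65 to 7.79). Of the regions found with TAZ4SA alone 6.20% lay there, and with TAZ-CAMTA1 alone 6.08%. Seen by chromosome, 59.3% (55.6 to 62.9) of YAP5SA regions on chromosome 5 were YAP5SA-only.

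The excess on chromosome 5 moved with the set of lists. The regions shared with YAP-TFE3 alone had 22.2% (19.1 to 25.7) of their peaks on chromosome 5, as many as the YAP5SA-only regions within the intervals. The 1152 YAP5SA regions that also held a TAZ4SA, TAZ-CAMTA1 or CAMTA1 peak had 11.6% there, 9.88 points (7.21 to 12.4) less than the YAP5SA-only regions. When those were left out, a comparison chosen after seeing the data, 408 of 554 YAP5SA regions on chromosome 5 were YAP5SA-only (73.6%) and 1489 of 2039 elsewhere (73.0%). That difference was 0.620 points (−3.64 to 4.63), against 10.6 (6.48 to 14.6) over all YAP5SA regions. The lists concerned differed in depth as well as protein, and these cannot be told apart.

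**Figure D5:**
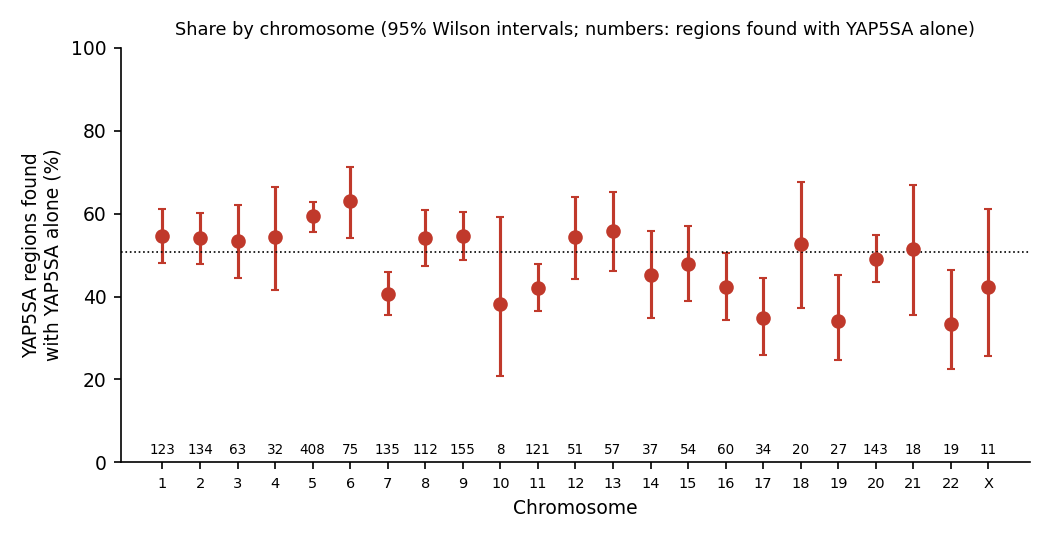
Percentage of YAP5SA regions that were YAP5SA-only (vertical axis) by chromosome (horizontal axis); bars are 95% Wilson intervals, the dotted line is the genome-wide 50.7% and the numbers give the YAP5SA-only regions. Chromosomes 5 and 6 lie above the line, and chromosomes 7, 11, 16, 17, 19 and 22 below it, with intervals that leave it out.

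The chromosome 5 regions also stood more often over a raised background, though their median background was the genome-wide 10.7 fragments. The local background at the summit was above the genome-wide mean at 194 of 405 YAP5SA-only peaks on chromosome 5 (47.9%) and at 42 of 54 on chromosome 13 (77.8%). On the other chromosomes it was so at 164 of 1431 (11.5%), with the highest proportions on chromosomes 19 (29.6%) and 20 (23.1%). Shared peaks had nearly the same proportions, at 48.7% on chromosome 5, 73.9% on chromosome 13 and 12.6% elsewhere. Median fold was 4.25 on chromosome 5 and 3.63 on chromosome 13, against 4.68 on the rest, while the median number of fragments was 61, 59.5 and 64. Copy number of these chromosomes in SW872 was not analysed here, and its part in these values was not tested.

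The difference in the YAP5SA-only share between chromosome 5 and the rest was nearly as large at the genome-wide background as above it. Among YAP5SA peaks at the genome-wide background it was 59.6% on chromosome 5 and 48.8% elsewhere, and among peaks above it 58.8% and 47.7%. By strength, the difference was 4.60 points (−2.52 to 12.5) in the strongest of 4 equal parts of the YAP5SA list by q, and 9.98 (1.06 to 18.4), 11.7 (3.18 to 19.5) and 10.2 (3.33 to 16.5) in the next 3. Along the chromosome, the 10-Mb bins with the most YAP5SA-only regions were 30 to 40 Mb with 63, 50 to 60 Mb with 59 and 70 to 80 Mb with 50. Shared peaks numbered 31, 36 and 41 in those bins. Between 20 and 30 Mb there was no YAP5SA peak of either kind.

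The difference on chromosome 20 lay within counting error, and chromosome 6 had the highest YAP5SA-only share. Chromosome 20 held 143 YAP5SA-only regions (7.54%), against 8.01% of shared YAP5SA regions and 7.24% of all merged regions, and the difference from the shared regions was −0.47 points (−2.20 to 1.25). On chromosome 6, 75 of 119 YAP5SA regions (63.0%, 54.1 to 71.2) were YAP5SA-only, and 75 of 84 (89.3%) once those with a TAZ4SA, TAZ-CAMTA1 or CAMTA1 peak were left out. At the low end were chromosome 22 with 33.3% (22.5 to 46.3), chromosome 19 with 34.2% (24.7 to 45.2) and chromosome 17 with 34.7% (26.0 to 44.5). On chromosome 19 the share without those lists was 50.9% (37.9 to 63.9), the lowest of all chromosomes on that count.

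The crowding of YAP5SA-only peaks differed from that of shared peaks by less than the counting error. Another YAP5SA peak lay within 10 kb of 503 of them (26.5%, 24.6 to 28.5) and of 500 shared peaks (26.9%), a difference of −0.41 points (−3.24 to 2.42). The median distance to the next YAP5SA peak was 47.8 kb for YAP5SA-only and 45.2 kb for shared peaks. A neighbour that was itself YAP5SA-only lay within 10 kb of 328 (17.3%) and a shared YAP5SA peak within 10 kb of 276 (14.5%). For 1394 (73.5%) there was neither.

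Linked at gaps of up to 10 kb, the 1897 regions formed 1723 groups. Of these 1569 were single regions, 138 were pairs and 16 held 3 or more. Chromosome 5, with 408 of the 1897 regions (21.5%), had 10 of those 16. Chromosomes 16 and 20 had 2 each, and chromosomes 13 and 19 had 1 each. Groups of shared peaks are not given here, and the part of the number of regions on chromosome 5 was not tested. A group of 4 lay at chr5:52654862-52658068, within 3.21 kb, with folds of 3.08 to 5.05.

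The largest group, of 6 YAP5SA-only regions, spanned 16.5 kb at chr5:165765783-165782322. Its peaks had 96 to 131 fragments over a local background of 30.04 to 40.1, and folds of 2.34 to 3.58. Among them lay a YAP5SA peak shared with TAZ4SA, chr5:165767134-165767602, with 186 fragments and a fold of 3.63. Just past the end of the group came the strongest peak of the whole YAP5SA list by q, chr5:165783138-165786052, with 630 fragments and a fold of 18.3, which TAZ4SA and YAP-TFE3 shared. The group thus combined high fragment numbers with low folds, in the neighbourhood of the top YAP5SA site. Its members are 6 calls in 1 place and not independent sites.

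High fragment numbers at low fold also occurred outside this group. The YAP5SA-only peak with the highest background was chr5:69515672-69515921, where 211 fragments, the most of any YAP5SA-only summit, stood over 88.0 and gave a fold of 2.35. At chr6:83274533-83274873, 128 fragments over a background of 62.0 gave 2.01, the lowest fold of any YAP5SA-only peak. Over all chromosomes the background exceeded the genome-wide mean at 400 of 1890 YAP5SA-only peaks (21.2%) and at 362 of 1848 shared peaks (19.6%).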

How the data were processed

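The series held Flag, IgG and input ChIP-seq libraries of SW872 cells. Per the study's methods, the authors pooled reads by construct. Trimming was by Atropos and alignment to GRCh37 by BWA-MEM. The authors then dropped multiply mapped reads and greylisted regions and called peaks with macs2 from paired fragments. Submitters' processing notes name hg38, but 45 of 9899 peaks on chromosomes (6 of the 1897 YAP5SA-only ones) end past the GRCh38 chromosome of that name, so positions were read as GRCh37. The authors deposited, for each peak, positions, a fold enrichment (a ratio), and p-value and q-value as −log10. A display score that the authors' caller derived from q was deposited too and was not used. The highest deposited q was 0.0993. No value column lacked a group.

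Peaks of 6 lists were merged in Python 3.11.15 with numpy 2.4.6, pandas 2.3.3 and scipy 1.17.1. Coordinates are 1-based. Fragments at each summit were solved from fold and p as whole numbers (tolerance 0.02), which succeeded for 99.6% of YAP5SA peaks and not for 7 YAP5SA-only and 9 shared ones, and was tested on simulated data. Medians have binomial order-statistic intervals. Regions named were the 10 with the highest and the 3 with the lowest −log10 q, and 3 each with the smallest gap and the smallest overlap; regions on chromosome 8 and 1 of the overlaps were not printed, and groups, highest backgrounds and their neighbours were named after their values were seen. The members and lists were chosen with earlier results of these data known. Alternatives were a gap of up to 500 bp, 50% reciprocal overlap, sharing with YAP-TFE3 and TFE3 only, and unplaced scaffolds. Another kept only those YAP5SA peaks with q below 0.01.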

Additional observations from a re-analysis of the deposited data

How the results depend on the processing

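Over 12 results, 47 alternatives were run, and 36 of them left the value within its counting interval or, for the number of regions, within 1.5 times. The 36 include the number of regions, which ran from 1708 to 2380, and the median local background, which was 10.7 fragments in every setting. When only YAP-TFE3 and TFE3, the lists of similar depth, could share a region, 63.5% of YAP5SA regions were YAP5SA-only. Their median fold was 4.68, their median width was 294 bp, and 18.99% lay on chromosome 5. Within 10 kb of a YAP-TFE3 or TFE3 peak lay 16.2% of them. Peaks from the remaining constructs did not count towards that distance, so it cannot be set against the 21.7% of the main rule. With 50% reciprocal overlap, 60.4% were YAP5SA-only and 34.5% lay within 10 kb of another construct's peak, since partly overlapped peaks then count as YAP5SA-only. With gaps of up to 500 bp counted as shared, 19.3% lay within 10 kb, because near regions leave by construction. With YAP5SA peaks limited to q below 0.01 the median fold was 4.75, because weak peaks are dropped. Another YAP5SA peak then lay within 10 kb of 23.2%. The difference in the YAP5SA-only share between chromosome 5 and the rest was 0.620 points when regions with a TAZ4SA, TAZ-CAMTA1 or CAMTA1 peak were left out, which was added with the data in view. No paired analysis was possible because each construct had 1 list made from pooled replicates, and no replicate could be left out. Motifs, distances to transcription starts and nearest genes were planned and not run, because the supplied genome was of another build. In the TAZ4SA, CAMTA1 and TAZ-CAMTA1 lists the weakest calls against the genome-wide background rest on 11 fragments, and the part of depth in what these lists hold cannot be told apart from that of the protein.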
